A study of Rattus norvegicus with 160 samples.

Results

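Transcript levels of the cytosolic ribosomal protein genes were examined in 2 brain regions of male rats raised by different mothers. The genes were taken by name: every transcript on the array whose RefSeq identifier maps to a rat symbol beginning with Rpl or Rps followed by a number (with at most a final a, x or y), and Rplp0, Rplp1, Rplp2 and Rpsa, leaving out the S6 kinases. This gave 63 genes of 25903 rows, 36 coding for proteins of the large subunit and 27 for proteins of the small subunit. All 63 had 1 row and had values in both regions. The gene table holds 77 symbols that meet the rule, and the other 14 (among them Rpl12, Rpl7 and Rps16) had no matched row and were not analysed here.

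The animals were Sprague-Dawley males from lines bred for low (LR) and high (HR) locomotor responses to novelty. Of 4 rearing groups, 2 stayed with the birth mother (groups LR and HR), and 2 were LR males given to a foster mother of the LR line (group LR-LR) or of the HR line (group LR-HR). They were sampled at P07, P14, P21 and as adults (P75). Amygdala and hippocampus were dissected from frozen sections and hybridised to 1-colour NimbleGen arrays, 5 per group, 80 per region and 160 in all, a number that limits the precision. No group combines HR pups with an LR dam. Which arrays came from littermates is not stated in the labels, and p-values therefore rest on the spread among these arrays alone.

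A ribosome carries 1 copy of most of its proteins, so cells make these proteins in matched amounts. The small subunit reads the mRNA and the large subunit joins the amino acids, and a flexible stalk of P proteins on the large subunit recruits the elongation factors. Most mammalian ribosomal protein mRNAs start with a C followed by a run of pyrimidines (C or T), the 5' terminal oligopyrimidine tract, through which mTOR signalling raises or lowers their translation together. In brain they are expressed by neurons, glia and vessels alike.

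The start of the gene was read for the members found in a table of promoters (RefSeq, GRCr8), 51 of the 63 genes with 52 annotated starts. Windows of 30 bases are shown, 15 before the annotated start and 15 from it on, so that the last 15 bases are the first of the transcript. Capitals mark a C within 5 bases of the start with the pyrimidines that follow it, at least 4. The first 3 genes had the largest rises in the foster comparison at P14, and the last 4 small changes or, for Rps6, the values given for each array below. The windows lie at chr3:187724023-187724052 (Rps21, plus strand), chr18:56498245-56498274 (Rps14, plus), chr8:71290858-71290887 (Rplp1, minus), chr7:113507976-113508005 (Rpl3, minus), chr14:1995211-1995240 (Rpl5, minus), chr8:128728864-128728893 (Rpsa, plus) and chr5:106420526-106420555 (Rps6, minus).
Rps21: gaacgagccaCTTCCTTTCTgtgttctccg
Rps14: cccttccgtctCTCTCTTTCCggtggagga
Rplp1: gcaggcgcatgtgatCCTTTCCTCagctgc
Rpl3: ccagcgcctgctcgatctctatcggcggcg
Rpl5: actctctttcccacgtcgcttgcgtcctgg
Rpsa: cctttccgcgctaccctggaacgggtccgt
Rps6: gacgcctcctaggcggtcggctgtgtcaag
Such a tract within 5 bases of the start was found at 32 of the 52 starts (61.5%), against 16.6% of 21842 starts of protein coding genes. With the C exactly at the annotated start the shares were 40.4% and 2.52%. Within the 300 bases of each promoter, on either strand, CCGGAAG (a core of ETS factor sites) was held by 30.8% of these starts and 10.7% of all, AAGATGG (a core of YY1 sites) by 13.5% and 7.29%, and CACGTG (the E-box bound by Myc) by 7.69% and 7.01%. CCGGAAG and AAGATGG can overlap by the letters AAG, CACGTG reads the same on both strands, and a match is a description of the letters only. Small changes were not limited to genes without a marked tract, since Rps3a and Rpl4 have one. The mark depends on where the start was annotated. The windows of Rpl5, Rpsa and Rps6 hold a C with a run of pyrimidines further before the start, which was not counted.

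The ribosomal protein transcripts were among the brightest on the arrays. Their means lay at a median percentile of 96.6 of all transcripts in the amygdala (lowest 82.4) and of 98.1 in the hippocampus (lowest 91.8). The highest value of any of the 63 on an amygdala array was 15.29 (log2 intensity) and on a hippocampal array 15.40, below the highest of any transcript, which was 15.99 or more in both regions. In the hippocampus, where a random control sequence was given, 0 of 5040 ribosomal protein values were at or below the control of their array. Each level is the brightness of 1 probe set, so levels are compared within a gene only, and probes of these genes may also bind transcripts of their many near-identical processed copies, which was not tested. The regions had been normalized separately, and levels are compared within a region only.

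Arrays of a group correlated at a median r of 0.944 in the amygdala across all transcripts. In the hippocampus the median was 0.904, and 3 arrays of P21 stood apart with medians under 0.7 (LR replicate 5, LR-LR replicates 4 and 5). In the amygdala the list of 6 myelin genes (among them Mbp, Mog and Mobp) also set groups of 1 age apart: at P14 its summed intensity ran from 24586 to 72016 in HR, from 4869 to 6869 in LR, from 9835 to 12297 in LR-LR and from 9602 to 11650 in LR-HR. At P21 it ran from 32031 to 70144 over all arrays, so that the HR arrays of P14 reached the range of P21. The 5 measured neuron markers (Snap25, Syt1, Tubb3, Stmn2, Syn1) were bright in every amygdala array, with sums from 31231 to 86152. In bulk tissue, fewer cells of a type and less RNA per cell cannot be told apart.

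In the amygdala the ribosomal protein genes formed 2 levels that the rearing groups took up at different ages. At P07 all 4 groups were high, with a mean over the 63 genes of 12.35 ± 0.11 (log2 intensity, SD, n = 5) in LR, 12.57 ± 0.07 in LR-LR, 12.45 ± 0.11 in LR-HR and 12.45 ± 0.10 in HR. At P14 LR (12.57 ± 0.11) and LR-HR (12.35 ± 0.07) remained high, while LR-LR (11.26 ± 0.12) and HR (11.35 ± 0.18) were low. At P21 LR-HR (12.26 ± 0.16) and HR (11.97 ± 0.13) were high and LR (11.12 ± 0.14) and LR-LR (11.13 ± 0.07) low. In adults only HR was low (11.24 ± 0.08), with LR at 12.27 ± 0.15, LR-LR at 12.18 ± 0.18 and LR-HR at 11.95 ± 0.09. The mean of a gene ranged over the 16 groups by a median of 1.66 (log2), from 0.83 for Rpl13a to 2.61 for Rpl27, where the median transcript ranged over 1.23. By gene, the highest of the 16 groups was LR at P14 for 28 genes and LR-LR at P07 for 25, and the lowest was LR at P21 for 19, LR-LR at P21 for 15, HR adults for 11 and LR-LR at P14 for 10.

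**Figure D1:**
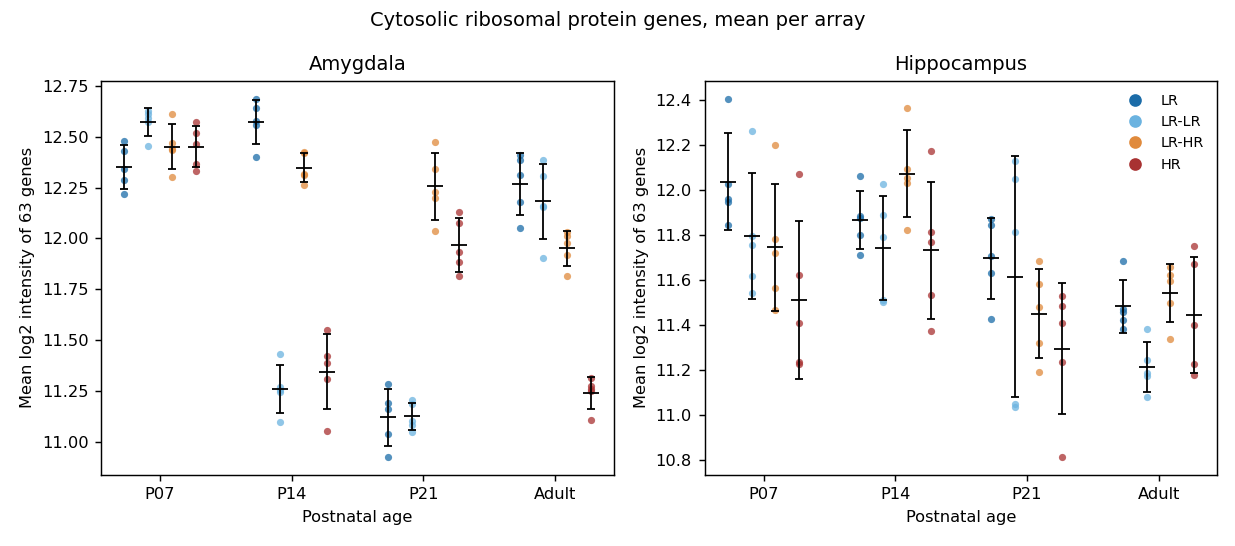
Mean log2 intensity of the 63 ribosomal protein genes in each array, by postnatal age and rearing group, with the amygdala on the left and the hippocampus on the right (points are arrays, bars the mean ± SD of 5 arrays, and the vertical axes differ and do not start at 0). In the amygdala the LR-LR and HR arrays at P14, the LR and LR-LR arrays at P21 and the adult HR arrays lie between 10.93 and 11.55, and all other arrays lie at 11.82 or above.

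Differences are given below as log2 changes ± SE from linear models (limma), with p-values adjusted over all transcripts of the region by the Benjamini-Hochberg method. A gene was called at an adjusted p under 0.05. The foster comparison is LR-HR minus LR-LR, which asks what the line of the foster dam changed among fostered LR pups. The line comparison is HR minus LR, each with its own mother, and the fostering comparison is LR-LR minus LR. The fostering comparison shares its LR-LR arrays with the foster comparison and its LR arrays with the line comparison.

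At P07 no ribosomal protein gene was called between rearing groups in the amygdala. Of the 63 genes 0 were called in the foster, line and fostering comparisons by limma (0.0901%, 0.131% and 0.0586% of all transcripts were called), and at an unadjusted p under 0.05 there were 5 lower, 2 higher and 12 higher in turn. The median changes were -0.12, 0.10 and 0.20, and 61 of 63 changes of the fostering comparison were above 0. The arrays of 4, 0 and 7 genes did not overlap (3.14%, 2.66% and 1.35% of all transcripts). In Rplp1, a P protein of the stalk, the 5 arrays were 11.46, 11.85, 12.65, 11.95 and 12.14 in LR, and the 4 groups overlapped.

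At P14 nearly the whole set was higher in the LR-HR than in the LR-LR amygdala. In LR-HR the mean over the 63 genes was 12.26, 12.31, 12.42, 12.32 and 12.42 in the 5 arrays, and in LR-LR it was 11.10, 11.24, 11.26, 11.43 and 11.27. Every LR-HR array thus lay above every LR-LR array. Of 63 genes 56 rose and 0 fell, where 8.52% of all transcripts rose and 13.7% fell, and the median change was 1.11 against -0.02 over all transcripts. The LR-HR and LR-LR arrays did not overlap in 57 genes (20.4% of all transcripts).

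Rplp1 and Rplp2 of the stalk rose by more than the median gene. Rplp1 was 12.24, 12.33, 12.38, 12.13 and 12.32 in LR-HR and 10.54, 10.57, 10.53, 10.69 and 10.83 in LR-LR (change 1.65 ± 0.18, adjusted p = 2.57e-06). Its partner Rplp2 rose by 1.50 ± 0.17 (adjusted p = 3.72e-06), and Rplp0, the protein that holds both on the ribosome, by 0.85 ± 0.19 (adjusted p = 0.00277). The largest rise was that of Rps21, a small subunit protein, from 10.12 ± 0.26 to 12.07 ± 0.17 (change 1.95 ± 0.18, adjusted p = 6.64e-07). Rps14, a protein of the small subunit platform, rose by 1.67 ± 0.22 (adjusted p = 1.74e-05).

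Rps6, the substrate of the S6 kinases, was 12.24, 12.08, 12.35, 11.87 and 12.29 in LR-HR and 11.20, 11.10, 11.44, 11.40 and 11.42 in LR-LR (change 0.86 ± 0.17, adjusted p = 0.000952). Its arrays did not overlap between the groups. Rps3, at the mRNA entry of the small subunit, rose by 0.74 ± 0.23, Rpl10, a late joining large subunit protein, by 0.78 ± 0.23, Rpl11, which binds the 5S rRNA, by 1.09 ± 0.18, and Rps27a, made as a fusion with ubiquitin, by 0.90 ± 0.18 (adjusted p between 0.000138 and 0.0215).

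The 7 genes that were not called were Rpl13a, Rpl21, Rpl3, Rpl4, Rpl5, Rps3a and Rpsa. Their changes were all above 0, and the smallest were those of Rps3a (0.14 ± 0.23, adjusted p = 0.714), Rpl5, the other 5S rRNA binding protein (0.22 ± 0.22, adjusted p = 0.512), and Rpl3, a protein near the peptidyl transferase centre (0.36 ± 0.18, adjusted p = 0.155). Rpsa, a small subunit protein also known as the laminin receptor, was 13.67, 13.99, 14.19, 13.54 and 14.02 in LR-HR and 13.29, 13.33, 13.46, 13.46 and 13.52 in LR-LR (change 0.47 ± 0.17, adjusted p = 0.0508). Its groups did not overlap but lay close.

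The line comparison at P14 ran in the opposite direction. The mean over the 63 genes was 12.40, 12.58, 12.56, 12.64 and 12.69 in LR and 11.06, 11.42, 11.39, 11.31 and 11.55 in HR. No HR array reached the lowest LR array. In HR 62 of 63 genes fell and 0 rose (9.98% of all transcripts fell and 12.8% rose), with a median change of -1.18 against 0.04 over all transcripts, and the arrays of 59 genes did not overlap (13.9% of all). Rpl13a alone was not called (-0.45 ± 0.19, adjusted p = 0.101). The largest falls were those of Rpl39, a small protein of the exit tunnel (-2.45 ± 0.25, adjusted p = 7.94e-07), Rpl27 (-2.34 ± 0.24, adjusted p = 7.94e-07) and Rpl36 (-2.05 ± 0.22, adjusted p = 1.33e-06). Rplp1 was 12.56, 12.54, 12.79, 13.03 and 13.19 in LR and 10.42, 11.04, 11.04, 10.58 and 11.07 in HR (change -1.99 ± 0.18). Rpsa was the closest of the called genes to the threshold (-0.47 ± 0.17, adjusted p = 0.0494).

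The fostering comparison at P14 was of like size. In LR-LR 58 of 63 genes were lower than in LR and 0 higher (12.7% and 24.9% of all transcripts), with a median change of -1.34 against 0.07 over all transcripts, and the arrays of 56 genes did not overlap (25.3% of all). Rps21 (-2.44 ± 0.18), Rplp1 (-2.19 ± 0.18) and Rpl38 (-2.17 ± 0.20) fell most. The 5 genes not called were Rpl3, Rpl4, Rpl5, Rps3a and Rpsa, with changes from -0.40 to -0.15. The same low LR-LR arrays entered both the foster and the fostering comparison, and LR-HR (12.35) stood 0.22 below LR (12.57) in the mean over the genes, a difference that was not tested.

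At P21 LR-HR again exceeded LR-LR. The mean over the 63 genes was 12.20, 12.34, 12.48, 12.03 and 12.23 in LR-HR and 11.10, 11.05, 11.08, 11.18 and 11.21 in LR-LR, without overlap. Of 63 genes 55 rose and 0 fell (6.14% and 15.5% of all transcripts), with a median change of 1.14 against -0.15 over all transcripts. The arrays of 53 genes did not overlap (15.6% of all). Rplp1 was 12.61, 12.96, 12.89, 12.14 and 12.42 in LR-HR and 10.58, 10.62, 10.63, 10.58 and 10.15 in LR-LR (change 2.10 ± 0.23). Rps21 rose by 2.05 ± 0.19 (adjusted p = 1.14e-06).

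The genes without a call at P21 were Rpl10, Rpl3, Rpl4, Rpl5, Rpl8, Rplp0, Rps3a and Rpsa. Rpl3 stood at -0.03 ± 0.22 (adjusted p = 0.932). Rpsa was 12.76, 13.02, 13.36, 12.99 and 13.27 in LR-HR and 12.87, 12.90, 13.05, 12.93 and 12.94 in LR-LR, and the groups overlapped (0.14 ± 0.20, adjusted p = 0.661). Rplp0, called at P14, was 0.29 ± 0.23 (adjusted p = 0.401), beside Rplp2 at 1.43 ± 0.20 and Rplp1 at 2.10. Rps6 was 11.65, 11.97, 12.46, 11.87 and 12.14 in LR-HR and 11.38, 11.18, 10.998, 11.57 and 10.88 in LR-LR (0.82 ± 0.19, adjusted p = 0.00519).

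**Figure D2:**
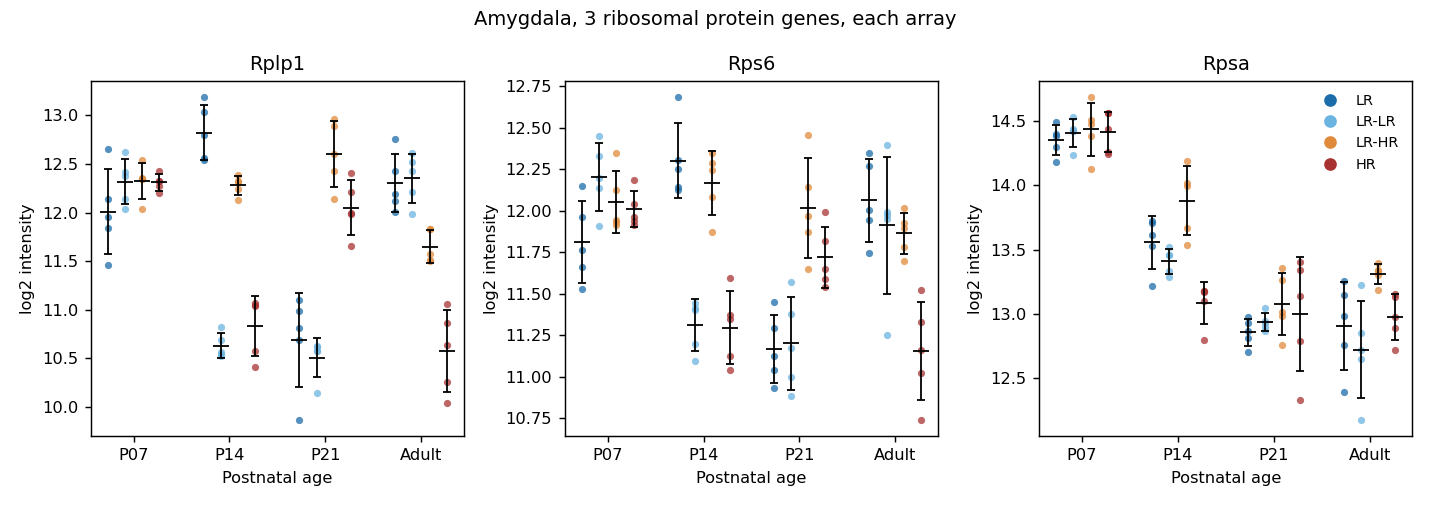
Log2 intensity of Rplp1, Rps6 and Rpsa in each amygdala array by age and rearing group (points are arrays, bars the mean ± SD of 5 arrays, and the vertical axes differ and do not start at 0). Rplp1 shows the 2 levels, near 12 to 13 and near 10 to 11, with adult LR-HR (11.50 to 11.84) and single arrays of other groups between them. Rps6 shows them in its group means, but its arrays overlap, from up to 11.60 in low groups to as little as 11.25 in high ones. Rpsa instead stands near 14.4 at P07 and is lower at later ages in all groups.

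The line comparison at P21 had turned over. HR, at 11.88, 12.13, 11.93, 11.82 and 12.08 in the mean over the genes, lay above LR, at 10.93, 11.28, 11.04, 11.19 and 11.16. In HR 50 of 63 genes rose and 0 fell (4.03% and 11.6% of all transcripts), with a median change of 0.82 against -0.14, and the arrays of 52 genes did not overlap (12.4% of all). Rps19, mutated in Diamond-Blackfan anaemia, rose most (1.59 ± 0.16, adjusted p = 1.72e-05), followed by Rpl27 (1.54 ± 0.23) and Rps24 (1.43 ± 0.37). Rpl8 (0.09 ± 0.23), Rpsa (0.14 ± 0.20) and Rpl3 (0.19 ± 0.22) differed least. LR-LR and LR did not differ by the test: 0 of 63 genes were called in the fostering comparison (0.0135% of all transcripts), with 1 higher and 1 lower at an unadjusted p under 0.05 and a median change of 0.01, and the arrays of 1 gene did not overlap (1.74% of all).

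In adults the line comparison was again negative and the foster comparison small. The mean over the genes was 11.10, 11.28, 11.25, 11.31 and 11.26 in HR and 12.18, 12.31, 12.05, 12.41 and 12.39 in LR. In HR 55 of 63 genes fell and 0 rose (7.88% and 20.2% of all transcripts), with a median change of -1.07 against 0.09, and the arrays of 56 genes did not overlap (20.9% of all). Rps24 (-1.87 ± 0.19, adjusted p = 1.03e-06), Rps27 (-1.75 ± 0.16, adjusted p = 4.38e-07) and Rpl38 (-1.73 ± 0.16, adjusted p = 5.83e-07) fell most. Rpl41, the smallest of these proteins, was 14.41 ± 0.09 in HR and 14.41 ± 0.16 in LR (change -0.00 ± 0.15), and Rpsa (0.07 ± 0.20) and Rplp0 (-0.08 ± 0.20) were near 0 too.

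Between the fostered adult groups 12 genes fell in LR-HR and 1 rose (4.55% and 17.2% of all transcripts), with a median change of -0.20 against 0.12 over all transcripts, and the arrays of 12 genes did not overlap (14.2% of all). The falls were led by Rpl38 (-0.76 ± 0.16, adjusted p = 0.00279), Rpl36 (-0.72 ± 0.21) and Rps29 (-0.72 ± 0.16), and included Rplp1 (-0.70 ± 0.21, adjusted p = 0.0195). Rpsa was the one that rose: it was 13.31, 13.18, 13.39, 13.35 and 13.33 in LR-HR and 12.18, 12.65, 12.72, 12.85 and 13.22 in LR-LR, where 1 array overlapped (0.59 ± 0.20, adjusted p = 0.0353). Its call was lost without any of LR-LR replicates 1, 2 and 3 or LR-HR replicates 1, 3, 4 and 5 (adjusted p up to 0.105). With the replicate number as a block, 18 genes were lower (9.83% of all transcripts). The adult fostering comparison called 0 of 63 genes (0.658% of all transcripts), with 1 higher and 8 lower at an unadjusted p under 0.05 and a median change of -0.11, and the arrays of 4 genes did not overlap (1.96% of all).

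**Figure D3:**
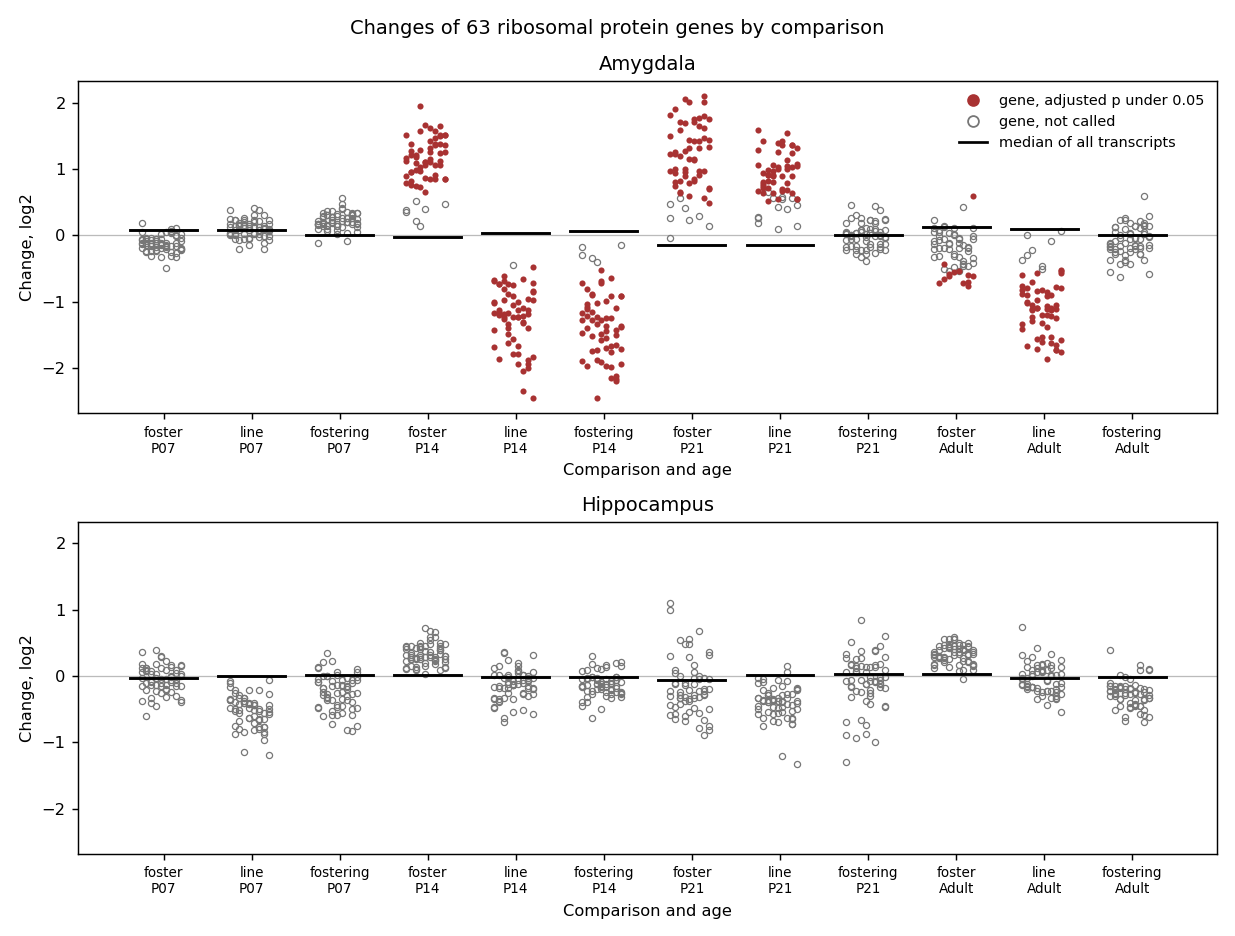
Log2 change of each of the 63 genes (points, filled where called) in the foster (LR-HR minus LR-LR), line (HR minus LR) and fostering (LR-LR minus LR) comparisons at each age, with the median of all transcripts as a black bar. In the amygdala (top) the points lie above 0 in the foster comparison at P14 and, but for Rpl3, at P21, and the line comparison changes from negative at P14 to positive at P21 and back to negative in adults for all genes but Rpsa; in the hippocampus (bottom) no gene was called.

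The turn of the line comparison with age was tested within the region. From P07 to P14 it became more negative in 59 of 63 genes (8.4% of all transcripts), with a median of -1.24. From P14 to P21 it became more positive in 63 of 63 (11.8% of all), with a median of 2.02 and 3.35 ± 0.27 for Rplp1. From P21 to adults it became more negative in 60 (10.7% of all), with a median of -1.90. The foster comparison grew from P07 to P14 in 57 genes (6.96% of all, median 1.23) and became more negative from P21 to adults in 54 (11.1% of all, median -1.39). Between P14 and P21 it changed in 0 genes (0.27% of all; 5 higher and 5 lower at an unadjusted p under 0.05), with a median of 0.08.

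Because the groups moved at different times, the average over the 4 groups describes none of them. Averaged, 61 genes fell and 0 rose from P07 to P14 (12.7% of all transcripts fell and 14.9% rose, median -0.58), 42 fell and 0 rose from P14 to P21 (5.83% and 9.44%, median -0.25) and 44 rose and 0 fell from P21 to adults (8.01% rose and 11.7% fell, median 0.29). By group, the first step lowered 61 genes in LR-LR (10.9% of all, median -1.33) and 61 in HR (11.9%, median -1.08), but 1 in LR-HR (4.28%, median -0.11) and 2 in LR (7.96%), where 15 rose (6.56%, median 0.26). LR fell 1 step later, in 63 of 63 genes from P14 to P21 (12.8%, median -1.41), while HR rose in 39 (4.11%, median 0.58) and in LR-LR 1 gene fell (0.865%, median -0.15) and in LR-HR 10 (3.69%, median -0.05). From P21 to adults 61 genes rose in LR (11.4%) and 58 in LR-LR (12.7%), while 49 fell in HR (3.62%) and in LR-HR 19 fell (2.16%) and 1 rose (9.44%). Of the averaged counts, the 42 of the second step became 27, 26 and 22 without replicate 2, 3 or 4 of every group, and the 44 of the third 29 without replicate 4.

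The averaged steps differed from gene to gene. Rpsa fell by 0.92 ± 0.08 from P07 to P14 and by 0.51 ± 0.08 from P14 to P21 in the average over groups (adjusted p = 3.88e-16 and 5.1e-07), and its means at P07, between 14.35 and 14.44, were above every later array, of which the highest was 14.19. Rps19 (-1.01 ± 0.08) and Rpl10 (-0.93 ± 0.08) had the largest averaged falls beside it in the first step, and Rps19 also differed most between HR and LR at P21. Rpl13a stood out in the other direction, with changes of -0.07 ± 0.09, -0.10 ± 0.09 and 0.10 ± 0.09 at the 3 steps, none of them called.

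The members did not move by the same amount, and their order was alike to a varying degree between comparisons. Across the 63 genes the changes of the foster comparison at P14 and at P21, which share no arrays, correlated at r = 0.80 (Spearman's rho 0.80). The line comparisons of P14 and adults, which share no arrays either, correlated at r = 0.82, and the foster comparison at P21 with the adult line comparison at r = -0.78. The foster comparison at P14 was less alike to the line comparison at P21 (r = 0.59) and in adults (r = -0.60). These are descriptions across genes, which share arrays, brightness and probe design and are not independent. The range of the 63 changes was from 0.14 to 1.95 in the foster comparison at P14 and from -0.03 to 2.10 at P21.

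The size of the change differed with the number in the symbol. Mammalian ribosomal proteins were numbered by their positions on gels, roughly from large to small, so a low number mostly means a long protein and mRNA; the lengths themselves are not used here. In the foster comparison at P14 the median change was 0.74 for the 13 genes numbered 1 to 9, of which 9 were called, against 1.21 for the 21 numbered 10 to 19 and 1.12 for the 25 numbered 20 and over, of which 20 and 24 were called. At P21 the medians were 0.65, 0.97 and 1.33 in this order, and in the adult line comparison -0.84, -1.01 and -1.29. The adult foster comparison had medians of -0.00, -0.14 and -0.43. Small subunit genes had larger medians than large subunit genes in the foster comparison, 1.24 against 1.06 at P14 and 1.47 against 0.96 at P21. The 32 genes with a pyrimidine tract marked near an annotated start had medians of 1.14 at P14 and 1.15 at P21. The 19 without a mark had 0.86 and 0.82, and some of these have such a run further before the start. None of these differences between subsets was tested.

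**Figure D4:**
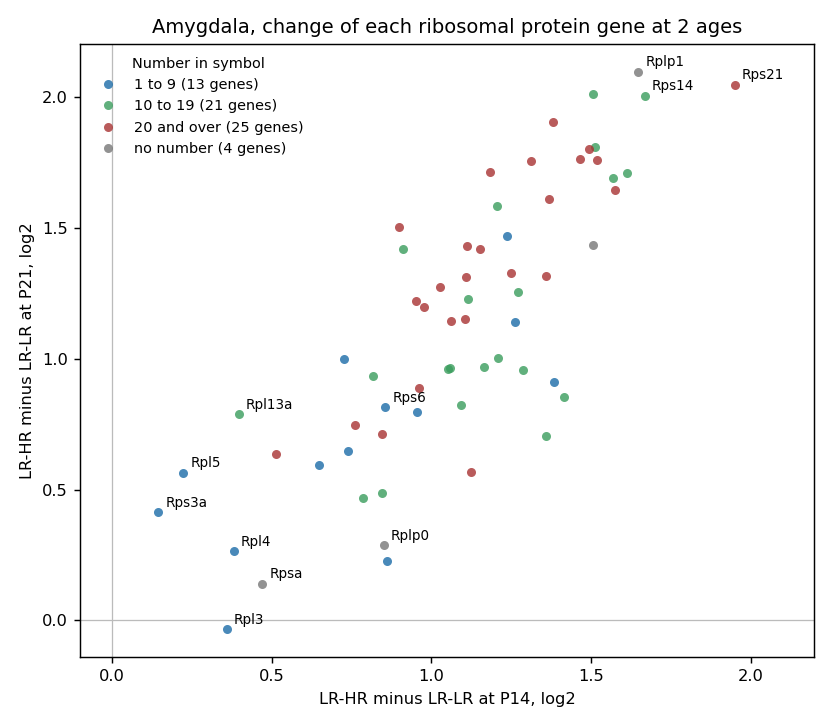
Log2 change of each of the 63 genes in the amygdala in the foster comparison at P14 (horizontal axis) and at P21 (vertical axis), coloured by the number in the gene symbol. Points run from Rpl3, Rps3a and Rpsa at the lower left to Rps21, Rplp1 and Rps14 at the upper right (r = 0.80), and low numbers lie mostly at the lower left.

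Ribosomal components outside the naming rule moved with it. Fau, the precursor of Rps30, rose by 1.23 ± 0.18 in the foster comparison at P14, and Rack1, a scaffold on the small subunit, by 0.63 ± 0.19. Both rose at P21 as well (1.49 and 0.67) and fell in the line comparison at P14 (-1.24 and -0.60). Of 24 mitochondrial ribosomal protein genes, which serve a separate ribosome, 10 rose and 0 fell in the foster comparison at P14 (median 0.60), led by Mrpl23 (1.10 ± 0.28), Mrps24 (1.03 ± 0.18) and Mrpl13 (0.999 ± 0.225). At P21 5 rose and 1 fell (median 0.25), and in the line comparison 15 fell at P14 (median -0.80) and 9 in adults (median -0.50). Among all transcripts 8.52% rose and 13.7% fell in the foster comparison at P14, and 6.14% and 15.5% at P21. In the line comparison 9.98% fell at P14 and 7.88% in adults.

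The rest of the translation machinery did not show the same pattern. Beside the counts below, 8.52% of all transcripts rose and 13.7% fell in the foster comparison at P14, and 6.14% and 15.5% at P21. In the fostering comparison at P14 24.9% rose and 12.7% fell. The counts of initiation factors in the foster comparison lay near those shares. Of 10 elongation and nascent chain factors 0 were called in the foster comparison at P14 (median 0.07) and 1 fell at P21 (median -0.21), Eef2, the translocase, at -0.74 ± 0.21. Eef2 rose instead in the line comparison at P14 (0.88 ± 0.21) and in adults (1.07 ± 0.19). Of 21 initiation factors 2 rose and 2 fell at P14 and 0 rose and 4 fell at P21 in the foster comparison, and 11 rose and 0 fell in the fostering comparison at P14. Among these, Eif4b, which helps the helicase of the cap complex, was lower in LR-HR than in LR-LR at P14 (-0.78 ± 0.20). Of 27 genes of ribosome assembly and the nucleolus 4 rose and 1 fell at P14 and 0 rose and 6 fell at P21 (medians 0.07 and -0.20), with Nop56, a snoRNP core protein, at -0.96 ± 0.17 and -1.16 ± 0.18. In the list of mTOR, S6 kinase and Myc genes, 0 of 14 rose and 5 fell at P14 in the foster comparison (median -0.38), among them Tsc1 (-1.47 ± 0.29) and Mtor (-1.11 ± 0.20), and 0 rose and 3 fell at P21. Of these 14, 10 rose and 1 fell in the fostering comparison at P14. The counts and the median include Pdk1, a pyruvate dehydrogenase kinase that is not part of mTOR signalling.

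Markers of cell types differed in these comparisons too. In the foster comparison the neuron and astrocyte lists had medians opposite in sign to the ribosomal protein genes. The blood and microglial lists had medians of the same sign. Of 5 neuron markers 4 fell and 0 rose in the foster comparison at P14 (median -0.65), among them Syn1 (-1.72 ± 0.22) and Syt1 (-1.21 ± 0.19), and 4 fell at P21 (median -0.68). The sum of the 5 was 51682 to 70072 in LR-HR and 67179 to 86152 in LR-LR at P14, and the ranges overlapped. All 5 markers of striatal and amygdala neurons fell at P14 (median -1.23, Drd2 by 2.48 ± 0.23), with sums of 9451 to 13326 in LR-HR, 24757 to 33762 in LR-LR, 9985 to 15889 in LR and 15310 to 17473 in HR. In the line comparison at P14 the 6 myelin genes rose (median 2.39, Mobp by 3.30 ± 0.34), and in adults 4 of 5 neuron markers rose (median 0.72). Of 5 blood genes 3 rose in the foster comparison at P14 (median 0.56, Hbb-b1 by 1.67 ± 0.22) and 3 at P21 (median 1.17), with sums at P21 of 59978 to 77385 in LR-HR and 20531 to 29721 in LR-LR. Of 6 astrocyte markers 2 fell at P14 and 4 at P21 in the foster comparison (medians -0.21 and -0.75), and of 6 microglial markers 2 rose at P14 and 1 at P21 (medians 0.74 and 0.62). Endothelial, choroid plexus and meningeal lists had 0 to 2 calls of 3 to 5 genes in these comparisons. Across all transcripts 8.52% rose and 13.7% fell in the foster comparison at P14, and 6.14% and 15.5% at P21. In the line comparison 12.8% rose at P14 and 20.2% in adults. The part of these markers in the ribosomal protein differences was not tested. The 5550 transcripts with the highest means had median changes of -0.06 in the foster comparison at P14, -0.34 at P21 and 0.29 in the adult line comparison, where the ribosomal protein genes stood at 1.11, 1.14 and -1.07.

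**Figure D5:**
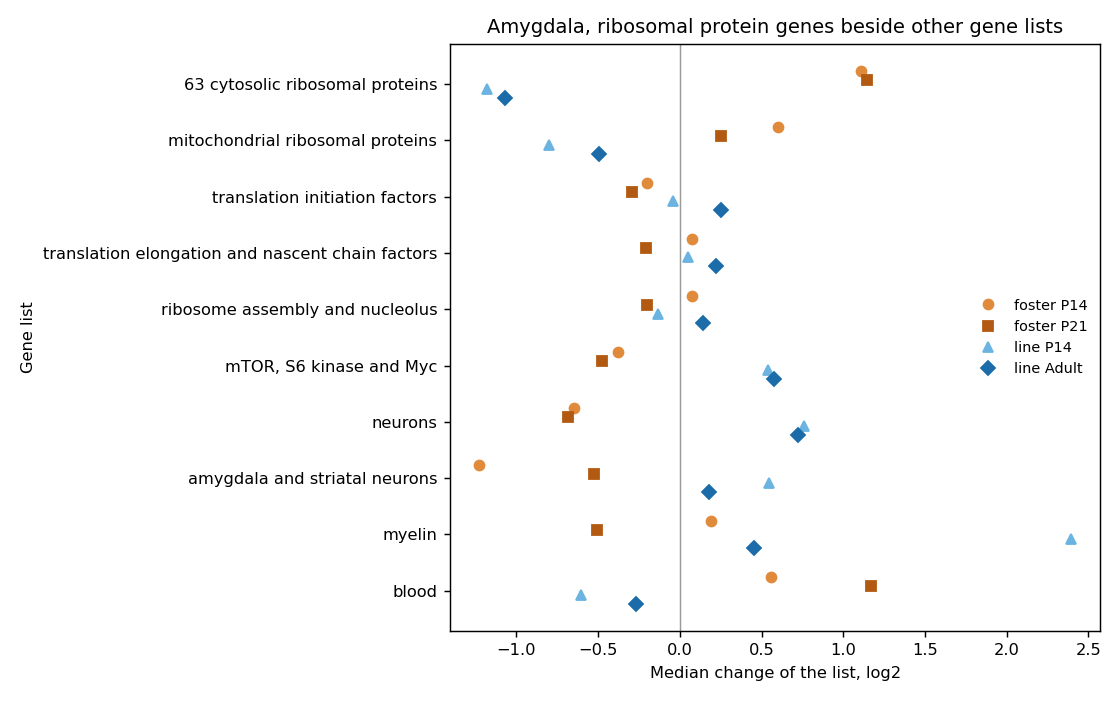
Median log2 change of the 63 cytosolic ribosomal protein genes and of 9 other gene lists in 4 amygdala comparisons (horizontal axis), namely the foster comparison at P14 and P21 and the line comparison at P14 and in adults. The ribosomal protein genes have medians above 1 in both foster comparisons, mitochondrial ribosomal proteins have medians of the same sign in all 4, and the neuron markers have medians of the opposite sign in all 4.

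In the hippocampus none of the same genes was called between rearing groups at any age in the fits without a replicate block. The mean over the genes was 12.04 ± 0.22 in LR, 11.79 ± 0.28 in LR-LR, 11.75 ± 0.28 in LR-HR and 11.51 ± 0.35 in HR at P07, and 11.87 ± 0.13, 11.74 ± 0.23, 12.07 ± 0.19 and 11.73 ± 0.30 in this order at P14. At P21 it was 11.70 ± 0.18, 11.61 ± 0.53, 11.45 ± 0.20 and 11.30 ± 0.29, and in adults 11.48 ± 0.12, 11.21 ± 0.11, 11.54 ± 0.13 and 11.45 ± 0.26. The groups overlapped at P07, P14 and P21, and in adults LR-LR overlapped LR by 1 array, at 11.383 against the lowest LR array at 11.382. The spread within a group was larger than in the amygdala, with an SD of the mean over genes of 0.26 against 0.12. The range of a gene over the 16 groups had a median of 1.003, from 0.62 to 2.68, the highest for Rpl39, where the median transcript ranged over 1.05.

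Of the 12 rearing comparisons in the hippocampus, 0 of 63 genes were called in each by limma. Of all transcripts 2.91%, 0.583%, 0.969% and 0.00386% were called in the foster comparison at P07, P14, P21 and in adults, 0.147%, 2.76%, 0% and 0.0502% in the line comparison and 2.59%, 1.53%, 0.0116% and 0% in the fostering comparison. The foster comparison at P14 nevertheless had all 63 changes above 0 (median 0.31; 12 genes higher at an unadjusted p under 0.05), and in adults 62 of 63 (median 0.33; 19 higher). In the line comparison at P07 all 63 were below 0 (median -0.50; 30 lower), with Rplp1 at 11.29, 10.93, 11.85, 11.62 and 11.94 in HR and 12.29, 12.22, 12.30, 12.45 and 12.71 in LR, which did not overlap (-0.87 ± 0.24, adjusted p = 0.165). Up to 3 genes of this comparison were called when single arrays were left out, the most without HR replicate 5. The remaining 9 comparisons had 0 to 4 genes higher and 0 to 15 lower at an unadjusted p under 0.05, and medians from -0.38 to -0.04. At P07 and P14 the arrays numbered 5 had the highest mean over the genes in all 4 groups, on average 0.46 and 0.30 above their group means. With the replicate number as a block, the fostering comparison called 7 genes lower at P07 (2.57% of all) and 1 at P14 (1.84%), and the foster comparison 1 lower at P07 (2.89%). Comparisons whose numbers were not taken as pairs also gained calls with the block, as given in the last section. The line comparison at P07 gained the most, so its 0 calls did not hold with the block. Its lowest same-number correlation was 0.08, under the bar of 0.1, but the median was 0.33. All 20 hippocampal arrays of P07 lay nearest to their own number.

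At P21 the LR-LR arrays of the hippocampus split. The mean over the genes was 12.05, 11.81 and 12.13 in replicates 1 to 3 and 11.05 and 11.04 in replicates 4 and 5, the pair that stood apart. Replicates 1 to 3 had medians of 0.747, 0.759 and 0.761 with their group, and replicates 4 and 5 correlated with each other at 0.940. A low median with the group marks the smaller part of such a split. Which part is unusual was not tested, and leaving out replicates 1 to 3 instead was not run. Without these and LR replicate 5, the median change of the foster comparison at P21 was -0.71 in place of -0.23, with 23 genes lower and 2 higher (12.3% and 15.4% of all transcripts) in place of 0. That of the fostering comparison was 0.36 in place of -0.06, with 2 higher and 3 lower (3.37% and 7.92%), and the line comparison called 0 genes with and without them.

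With age, single hippocampal genes changed in both directions on average over the 4 groups. From P07 to P14 5 genes rose and 5 fell (7.44% and 4.71% of all transcripts, median 0.13). These counts lay near the shares of all transcripts, and the rises from P21 to adults given below were under theirs. The risers were Rps21 (0.58 ± 0.18), Rpl36 (0.49 ± 0.13), Rplp1 (0.48 ± 0.13), Rpl38 and Rpl35a, and the fallers Rpsa (-0.59 ± 0.12), Rplp0 (-0.44 ± 0.10), Rpl4 (-0.41 ± 0.10), Rpl15 and Rpl10. Without replicate 5 of every group 9 rose and 3 fell, and without any other number 1 or 2 rose. From P14 to P21 34 genes fell and 0 rose (11.5% and 8.65% of all; median -0.34), and without the 3 arrays that stood apart 16 fell (8.65% of all, with 5.48% higher), and without replicate 4 or 5 of every group 12. Rpl39 fell most, by 1.38 ± 0.16 (adjusted p = 1.92e-10), followed by Rps24 (-0.94 ± 0.14) and Rps27a (-0.63 ± 0.14), with group means of Rpl39 from 10.60 to 11.26 at P14 and from 8.58 to 9.91 at P21. From P21 to adults 3 genes rose (10.2% of all), Rpl4 (0.63 ± 0.10), Rpl10 (0.44) and Rpl5 (0.37), and 8 fell (4.99%), led by Rpl41 (-0.77 ± 0.11), Rpl36 (-0.72 ± 0.13) and Rpl22 (-0.69), with 23 lower (10.6%, and 16.2% higher) without the 3 arrays, 17 without replicate 5 of every group and 5 without replicate 1. These averages cover groups that were not alike. By group, the median change from P07 to P14 was -0.16 in LR, -0.09 in LR-LR, 0.36 in LR-HR and 0.28 in HR. From P14 to P21 it was -0.17, -0.11, -0.57 and -0.43 in this order, and from P21 to adults -0.22, -0.46, 0.10 and 0.11. The P21 values of LR and LR-LR include the 3 arrays that stood apart. The foster comparison changed from P14 to P21 in 4 genes, all more negative (0.911% of all), namely Rpl28, Rpl36, Rplp1 and Rps29, and without the 3 arrays in 41 more negative and 2 more positive (8.85% and 13.7%). Without replicate 1, 2 or 3 of every group it was 0 genes, and without replicate 4 or 5 it was 8 and 14. The other changes of a comparison between ages called 0 genes by limma. These were the foster comparison from P07 to P14 (2% of all transcripts; 8 genes higher at an unadjusted p under 0.05) and from P21 to adults (1%; 21 higher and 2 lower), and the line comparison at the 3 steps (0.131%, 1.19% and 0.0579%; 15 higher, 1 higher and 4 lower, and 6 higher). With the 3 arrays left out, the foster comparison changed from P21 to adults in 33 genes upward and 1 downward (5.84% and 11%), and the line comparison from P14 to P21 in 5 downward (1.43% higher and 1.54% lower of all).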

How the data were processed

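Transcript levels were measured on 160 NimbleGen 1-colour arrays (Cy3), 5 for each of 32 combinations of region, age and rearing group, with groups and replicate numbers taken from the sample titles. The deposited values are linear intensities. Per the submitters' processing notes the authors used RMA, with no version given. No label names a slide or scan date, and no batch was modelled. Deposited intensities were turned into log2 values here without a pseudocount or filter. The random control sequence was left out of the fits. No column of other samples was present (0 columns).

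Symbols came from a RefSeq gene table (GRCr8), matching 9499 of 25903 rows. The genes and all gene lists were chosen with earlier results of these data known. limma 3.58.1 in R 4.3.3 was fitted to the 20 arrays of a region and age for the rearing comparisons, and to the 80 arrays of a region (16 group means) for steps between ages and for changes of a comparison between ages. Adjustment ran over 22197 amygdala or 25897 hippocampal transcripts. All adjusted p-values come from limma. Some genes that the naming rule picked are not reported here by name; counts and medians include them. The fits were tested on simulated data in which genes and arrays varied independently. Such data cannot test calls of genes that move together or of arrays that pair by number. The number of arrays limits the precision.

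Genes were named by rule: 11 well known members, the 3 largest called rises and falls of a comparison, and up to 3 smallest or opposite changes where most were called; genes named because they lost or lacked a call were chosen after their values were seen. Other lists name at most 3 genes by the largest called change, and the lists of outside ribosomal proteins and cell types name further genes chosen after their values were seen. The replicate numbers of the labels were checked: same-numbered arrays deviated together, every pair over r = 0.1, in the line and fostering comparisons of the amygdala at P07, the foster and fostering comparisons of the amygdala in adults, and in the hippocampus the foster and fostering comparisons at P07, the fostering comparison at P14 and the foster comparison in adults. Where the block moved a count there it is given beside the result. Alternatives were quantile normalization, median centring, trended and robust variances, fits on 2 groups or 2 ages, the replicate block, transcripts above the median mean, leaving out each array, and, added after seeing the data, leaving out the 3 hippocampal P21 arrays that stood apart.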

Additional observations from a re-analysis of the deposited data

Results flagged for a closer look

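Each group was tested for a single array far from the other 4, in the mean over the genes, Rplp1, Rps6 and Rpsa. Of these 128 tests, which share arrays, 7 flagged an array, where chance flags about 1 in 20 independent tests. In 6 of the 7 flags the array was a replicate 5, and Rplp1 and Rps6 were flagged on the same hippocampal array of P21. In the hippocampus at P07 the flagged arrays were replicate 5 of LR for Rps6 (12.43, others 11.57 to 11.81), of LR-LR for Rpsa (14.14, others 13.04 to 13.30) and of HR for Rpsa (14.15, others 13.02 to 13.32). At P21 hippocampal LR replicate 5, an array that stood apart over all transcripts, had Rplp1 at 10.75 (others 12.13 to 12.32) and Rps6 at 12.84 (others 10.89 to 11.41). In the amygdala, Rpsa of HR replicate 4 at P14 was 12.80 (others 13.11 to 13.18), and Rplp1 of LR-LR replicate 5 at P21 was 10.15 (others 10.58 to 10.63).

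The rearing comparisons differed between successive ages by a test of the difference itself. In the amygdala the foster comparison changed in 57 genes from P07 to P14 (from 0.17 to 2.16 over the 63 genes) and in 54 from P21 to adults (from -2.80 to 0.45). The line comparison changed in 59 genes from P07 to P14, in 63 from P14 to P21 (from 0.61 to 3.88) and in 60 from P21 to adults (from -3.29 to -0.08). In the hippocampus the foster comparison changed in 4 genes from P14 to P21.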

How the results depend on the processing

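Of 543 recalculated median changes (42 results), 528 moved by less than 1 SD of the mean over genes. Under 13 of the 543, 5 medians near 0 took the other sign: the amygdala fostering comparison at P21 (0.01, down to -0.05) and change of the foster comparison from P14 to P21 (0.08, down to -0.00), and the hippocampal foster comparison at P07 (-0.04, up to 0.06), fostering comparison at P21 and step from P21 to adults. Of 2348 recalculated single genes, 2251 kept their side of the threshold, 61 lost and 36 gained a call, and 0 of these changed the sign of a called change.

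By scaling, the amygdala medians moved under quantile normalization to -1.05 for the line comparison at P14, -0.36 for the adult foster comparison, and -1.11, -1.61 and -2.11 for the changes of the line comparison from P07 to P14, the foster comparison from P21 to adults and the line comparison from P21 to adults. Under median centring they moved to -1.50 (fostering, P14), 1.32 (foster, P21), 0.998 (line, P21) and -1.22 (line, adults). Leaving out 1 replicate number gave -1.39 to -1.24 for the change of the foster comparison from P21 to adults, and -0.17 to 0.02 for the hippocampal step from P21 to adults, which turned to 0.0207 without replicate 1. Without the 3 hippocampal P21 arrays that stood apart the medians were -0.71 (foster, P21), 0.36 (fostering, P21), -1.04 (change of the foster comparison from P14 to P21) and 1.03 (from P21 to adults, with 33 genes called higher and 1 lower where 0 had been); 5 genes were then called lower in the change of the line comparison from P14 to P21, where 0 had been.

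In the amygdala, without each array in turn, the foster comparison called 54 to 57 genes higher at P14 and 51 to 54 at P21, and the line comparison 58 to 61 lower at P14, 43 to 51 higher at P21 and 54 to 55 lower in adults. The adult foster comparison ranged from 9 to 16 lower without 1 array, with 24 under quantile normalization, 19 under median centring, trended variances or transcripts above the median mean, and 0 higher under either scaling or in a fit of the 2 groups alone (2 higher without LR-LR replicate 5). The averaged amygdala step from P14 to P21 lost genes without replicate 2, 3 or 4 (27, 26 and 22 lower) and in a fit of the 2 ages (27), and that from P21 to adults without replicate 4 (29 higher). Single calls appeared in the amygdala fostering comparison at P07 (1 higher under trended variances or transcripts above the median mean) and in adults (1 each way under those settings or quantile normalization, and 1 lower without LR replicate 3), and in the change of the foster comparison from P21 to adults (1 higher without replicate 5).

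In the hippocampus, where the comparisons had 0 calls, the line comparison at P07 called 18 lower with the replicate block (numbers not taken as pairs there, with a lowest correlation of 0.08), 4 under trended variances, 2 under quantile normalization and 2 among transcripts above the median mean, 3 without HR replicate 5 and 1 without LR replicate 3. At P14 it called 3 lower without HR replicate 5, 2 with the block or trended variances and 1 among transcripts above the median mean. The fostering comparison at P07 called 2 lower under quantile normalization and 1 without LR-LR replicate 5, with trended variances or among transcripts above the median mean, at P14 1 with trended variances, and the foster comparison at P14 1 higher with the block or trended variances. At P21, without LR-LR replicate 4 the foster comparison called 2 higher and 1 lower and the fostering comparison 1 lower, without LR-LR replicate 5 the foster comparison called 2 higher, and 1 under median centring or among transcripts above the median mean. The step from P14 to P21 had 12 lower without replicate 4 and 12 without replicate 5. That from P21 to adults had 17 lower without replicate 5, 5 without replicate 1 and 21 under quantile normalization, where 1 was higher, as without replicate 4. That from P07 to P14 had 1 to 9 higher and 3 to 4 lower without 1 replicate number, and 2 higher under quantile normalization. The change of the foster comparison from P14 to P21 had 0 to 14 lower without 1 number and 9 with the block, and that from P21 to adults 0 to 12 higher, 4 with the block and 1 under quantile normalization. The change of the line comparison from P14 to P21 had 1 higher and 2 lower without replicate 5. The replicate block changed no count in the amygdala by over 1.5 times, and arrays lay nearest to their own number in 20, 13, 4 and 18 of 20 in the amygdala and in 20, 19, 13 and 17 of 20 in the hippocampus, from P07 to adults. The cause of these shifts was not tested. The counts in this section stand without the share of all transcripts called under each setting. They therefore show how the calls of these genes moved, and not whether other transcripts gained or lost calls alike. The lowest-mean row of a symbol was not run, since no gene had several rows.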
